A study of Mus musculus with 12 samples.

Results

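The genes that differ between CA1 and CA3 were compared in fresh-frozen sections of the mouse hippocampus permeabilized with HCl, from 4 replicates of CA1 and 4 of CA3. These 8 replicates are 2 of the 12 libraries and 8 of the 48 replicates of the study, which applied photo-isolation chemistry (PIC) to 3 hippocampal regions in 4 histological conditions. PIC reverse-transcribes RNA inside the section with primers that carry a photo-caged group, frees the primers of a chosen region with light, and amplifies only the freed cDNA in a CEL-seq2 library that counts unique molecular identifiers (UMIs). Both groups came from male ICR mice (Slc:ICR in the study's methods) of 8 weeks, a wild-type outbred stock. The tissue was frozen without fixation. In the study's protocol a section on its slide is briefly fixed with paraformaldehyde (PFA), whatever its source, and the sections were then treated with Triton X-100 and with 0.1 N HCl for 5 min. The comparisons in the same frozen tissue permeabilized with TE at 70°C for 1 h, and in frozen sections of tissue already fixed with PFA and treated with TE (called fixed frozen sections), serve only to show where the HCl sections differ from them. The replicates of a region carried 4 barcodes and were pooled in 1 library, so within the HCl condition the region and the library cannot be told apart. The study describes them as 4 biological replicates per condition, but the labels do not say which animal gave which replicate. The p-values therefore measure the spread among these replicates, which were pooled in 1 library. The titles name the second region CA3 where the series' description names CA2, and the titles were followed.

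CA1 and CA3 are fields of pyramidal neurons, the principal glutamatergic cells of the hippocampus. Granule cells of the dentate gyrus (DG) send mossy fibres to CA3, CA3 neurons connect with each other and send Schaffer collaterals to CA1, and CA1 is the main output of this circuit. The cells of both fields share the genes of an excitatory neuron and differ in transcription factors, receptors, channels, adhesion molecules and peptides, and the irradiated tissue also holds interneurons, glia and vessels. In such bulk samples fewer cells of a type and less RNA per cell cannot be told apart.

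The CA1 replicates held 730992, 610016, 869363 and 127253 UMIs and the CA3 replicates 932744, 933756, 810032 and 731221. The mean totals were 584406 ± 322662 in CA1 and 851938 ± 99251 in CA3 (SD, n = 4), and their ratio of 0.686 was within the spread between replicates (two-sided exact permutation test, p = 0.114, where 0.0286 is the smallest p that 4 against 4 allow). CA1 replicate 4 stood apart by its depth. A gene with 0 UMIs there may have had a level of up to 23.6 CPM (counts scaled to the replicate's total), taking 3 counts as the limit for counting error only. Mitochondrially encoded genes took 8.26% of its UMIs against 3.10% to 3.56% in the other CA1 replicates and 2.28% to 2.81% in CA3, and satellite-like genes took 4.00% against 0.98% to 1.06% and 0.37% to 0.47%. Both regions had a similar number of genes with at least 1 UMI, 17822 ± 3069 in CA1 and 18414 ± 444 in CA3 (exact permutation test, p = 0.914). At an equal depth of 127253 UMIs per replicate the order was the opposite, with 13074 ± 225 genes in CA1 and 12360 ± 130 in CA3 (exact permutation test, p = 0.0286).

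Of the 32546 genes in the table, 15637 had 10 or more UMIs over the 8 replicates and were tested. Calls are adjusted p-values below 0.05 from edgeR's quasi-likelihood test, and log2 fold changes are CA1 over CA3. The test called 1428 genes (9.13% of those tested), of which 636 (4.07%) were higher in CA1 and 792 (5.06%) were higher in CA3. The differences were mostly moderate. The median log2 fold change was 1.22 among the genes higher in CA1 and -0.96 among those higher in CA3, while the median of all tested genes was -0.01, and 414 and 377 of them differed over 2-fold. In 464 of the 636 genes and in 669 of the 792 the 4 values of one region did not overlap the 4 of the other, which held for 6.57% of all tested genes with CA1 higher and 6.82% with CA3 higher. Leaving out the shallow CA1 replicate 4 gave 1344 calls (620 and 724). Without CA1 replicate 3, the deepest of CA1, 937 genes were called (436 and 501). The larger number was on the CA1 side under other processing, with 760 against 648 calls when totals replaced TMM normalization and 673 against 645 with edgeR's own filter on low counts.

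**Figure D1:**
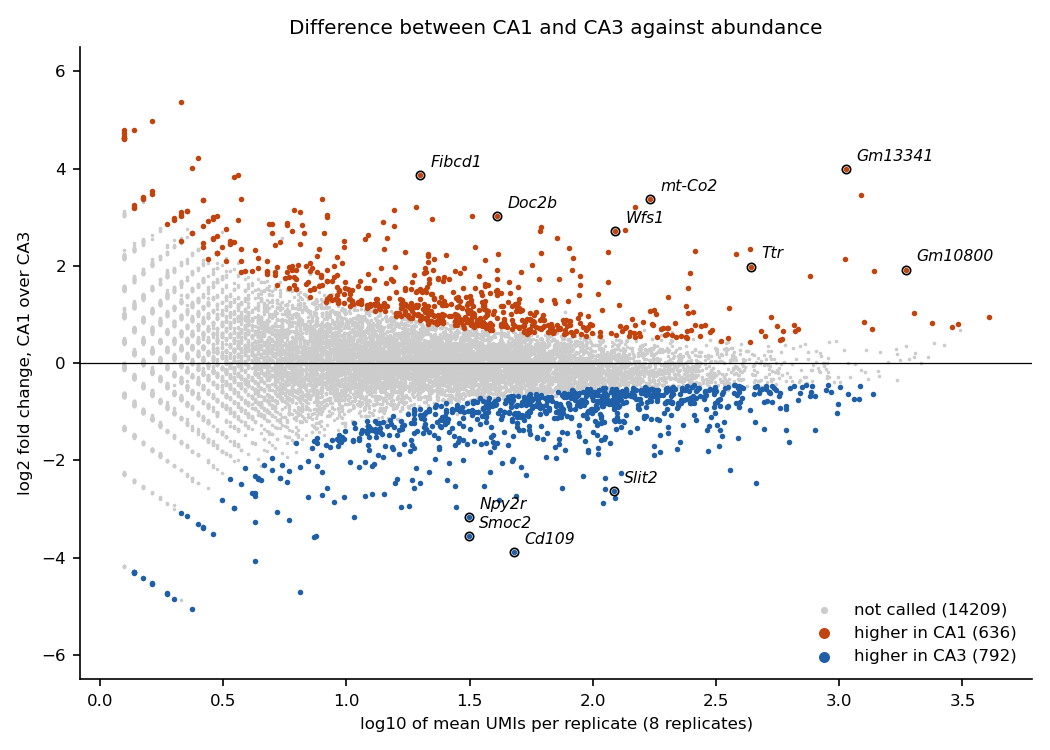
Each point is 1 of the 15637 tested genes, with the log10 of its mean UMIs per replicate on the horizontal axis and its log2 fold change of CA1 over CA3 on the vertical axis. Called genes are coloured, 636 higher in CA1 and 792 higher in CA3, and low genes needed a larger difference to be called. Gm3756, which had no UMI in CA3, lies beyond the axis.

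Wfs1, which encodes the endoplasmic reticulum protein wolframin and marks CA1 pyramidal cells, served as the check of the labels. Its level was 176, 385, 474 and 299 CPM in the 4 CA1 replicates and 41.8, 80.3, 40.7 and 31.5 CPM in the 4 CA3 replicates. Every CA1 value was above every CA3 value, and the DG replicates of the same condition had 82.0 ± 52.1 CPM (SD, n = 4). The log2 fold change was 2.72 ± 0.25 (SE, adjusted p = 4.07e-09), with a range of 2.50 to 3.10 when each replicate was left out in turn. The gene lies at chr5:36966104-36989205 on the minus strand of GRCm38.

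The 12 largest differences with CA1 higher, among named genes of at least 20 UMIs per replicate without overlap, ranged from 1.95 to 3.86 on the log2 scale. Fibcd1, a membrane receptor that binds acetylated sugars, led them with 20.5, 70.5, 97.8 and 31.4 CPM in CA1. In CA3 it had 0, 7.5, 6.17 and 1.37 CPM, and the log2 fold change was 3.86 ± 0.49 (adjusted p = 1.41e-06). Fibcd1 was near the limit of detection in CA3, and its CA1 replicates were spread widely. Doc2b, a calcium sensor of transmitter release, had 98.5, 152, 123 and 62.9 CPM in CA1 and 17.2, 21.4, 7.41 and 6.84 CPM in CA3 (log2 fold change 3.02 ± 0.29, adjusted p = 5.72e-09). Pou3f1, a POU transcription factor, had 239, 513, 434 and 267 CPM in CA1 and 41.8, 78.2, 61.7 and 30.1 CPM in CA3 (2.74 ± 0.24, adjusted p = 7.98e-10). In Wfs1, Fibcd1, Doc2b and Pou3f1 alike, CA1 replicates 2 and 3 were the highest of CA1.

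Thbd, the thrombin receptor thrombomodulin, had a log2 fold change of 2.72 ± 0.23 and 119 to 211 CPM in CA1 against 22.2 to 27.9 CPM in CA3. Igfbp4, a secreted protein that binds insulin-like growth factors, was even within both regions. It had 218, 216, 220 and 181 CPM in CA1 and 37.5, 39.6, 34.6 and 46.5 CPM in CA3, a log2 fold change of 2.37 ± 0.19 (adjusted p = 7.12e-11). Structural genes were among them. Itga8, an integrin chain, had 42.4 to 82.0 CPM in CA1 and 6.84 to 17.2 CPM in CA3, and Flna, the actin crosslinker filamin A, had 60.2 to 120 and 15.0 to 27.2 CPM. Kcnh7, an ERG-type potassium channel, was higher in CA1 by 2.16 ± 0.26, Ndst3, an enzyme of heparan sulfate modification, by 2.08 ± 0.36 and Mex3b, an RNA-binding protein, by 1.95 ± 0.33. Atn1, the transcriptional corepressor atrophin-1, had 75.2, 103, 102 and 39.3 CPM in CA1 and 17.2, 18.2, 9.88 and 17.8 CPM in CA3 (2.40 ± 0.27, adjusted p = 1.18e-07).

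The 12 largest differences with CA3 higher ranged from -2.53 to -3.89. Cd109, a glycoprotein anchored to the membrane that acts on TGF-beta signalling, had 108, 110, 114 and 95.7 CPM in CA3 and 9.58, 4.92, 5.75 and 15.7 CPM in CA1. Its log2 fold change of -3.89 ± 0.29 (adjusted p = 3.62e-11) was the largest, and the CA3 values lay close together. Smoc2, a secreted matrix protein, had 92.2, 56.8, 46.9 and 82.1 CPM in CA3 and 8.21, 8.20, 3.45 and 0 CPM in CA1 (-3.56 ± 0.37). Npy2r, the Y2 receptor of neuropeptide Y, had 87.9, 51.4, 61.7 and 72.5 CPM in CA3 and 15.0, 9.84, 1.15 and 0 CPM in CA1 (-3.17 ± 0.38). The zeros of both genes in CA1 replicate 4 are within the limit of 23.6 CPM that its depth allows. Cyp26b1, which degrades retinoic acid, was lower in CA1 by a log2 fold change of -2.96 ± 0.37, with 1.64 to 15.7 CPM against 49.2 to 71.8 CPM in CA3.

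Slit2, the secreted ligand of Robo receptors in axon guidance, had 273, 233, 278 and 241 CPM in CA3 and 41.0, 52.5, 36.8 and 39.3 CPM in CA1 (-2.64 ± 0.19, adjusted p = 2.02e-11). Nectin3, an adhesion molecule of synapses and cell junctions, had 238, 240, 320 and 252 CPM in CA3 and 41.0, 42.6, 42.6 and 15.7 CPM in CA1 (-2.77 ± 0.20, adjusted p = 2.02e-11). In both genes the lowest CA3 value was far above the highest CA1 value, and Nectin3 was highest in CA3 replicate 3. Grik4, which encodes a high-affinity kainate receptor subunit, had 81.5 to 131 CPM in CA3 and 0 to 19.2 CPM in CA1 (-2.74 ± 0.27). Prkcd, the kinase protein kinase C delta, had 66.5 to 98.5 CPM in CA3 and 6.90 to 19.2 CPM in CA1 (-2.82 ± 0.29). The rest were Nwd2 at -2.87 ± 0.22, Clmp, a junctional adhesion molecule, at -2.60 ± 0.25, Kctd4 at -2.56 ± 0.24 and Slc9a4, a sodium-proton exchanger, at -2.53 ± 0.34. All 24 genes of largest difference were called without each replicate in turn.

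**Figure D2:**
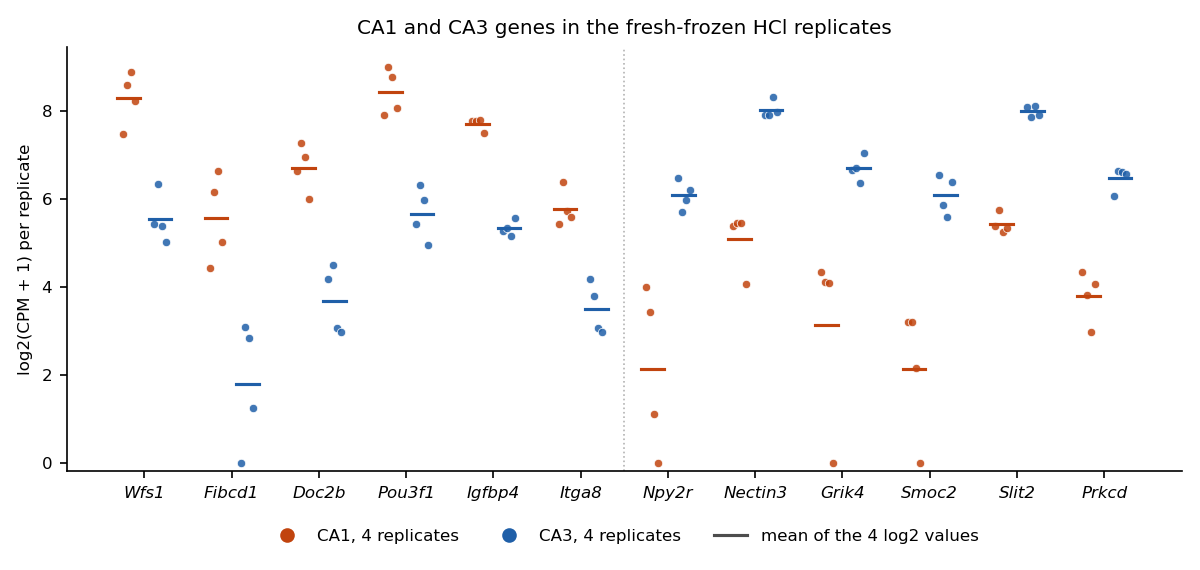
Points are the log2(CPM + 1) of single replicates for 6 genes higher in CA1 (left of the dotted line) and 6 higher in CA3, and the bars are the means of the 4 log2 values. The 12 genes were picked among those whose 4 values of one region do not overlap the 4 of the other, so their separation follows from the choice. The points at 0 are replicates with no UMI.

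The study also names Ociad2, Dkk3, Prox1 and Pdzd2. Dkk3, a secreted glycoprotein of hippocampal pyramidal cells, had 291 to 459 CPM in CA1 and 518 to 541 CPM in CA3, with a log2 fold change of -0.60 ± 0.15 (adjusted p = 0.00876). Without CA1 replicate 1 its adjusted p was 0.059. Ociad2 had 216 to 244 CPM in CA1 and 135 to 191 CPM in CA3, and although the values did not overlap, its log2 fold change of 0.48 ± 0.16 did not pass (adjusted p = 0.0562). Without CA3 replicate 1 it passed, at 0.040. Prox1, the homeobox gene of dentate granule cells, was lower in CA1 (-1.10 ± 0.23, adjusted p = 0.00141), with overlapping values. Pdzd2 gave -0.12 ± 0.30 and did not pass (adjusted p = 0.872).

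The promoters of 2 genes of each direction are printed because these genes are among those whose values were described above, with the 250 bases before the start as RefSeq gives it on GRCm38.p6, on the strand of the gene. Capitals mark the motifs found in a search of both strands.
Wfs1, chr5:36988983-36989232, minus strand: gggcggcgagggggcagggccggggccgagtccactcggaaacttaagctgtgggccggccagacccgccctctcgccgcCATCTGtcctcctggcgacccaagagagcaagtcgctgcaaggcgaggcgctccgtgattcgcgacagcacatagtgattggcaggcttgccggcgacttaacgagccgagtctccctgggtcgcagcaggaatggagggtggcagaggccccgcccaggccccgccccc
Igfbp4, chr11:99040994-99041243, plus strand: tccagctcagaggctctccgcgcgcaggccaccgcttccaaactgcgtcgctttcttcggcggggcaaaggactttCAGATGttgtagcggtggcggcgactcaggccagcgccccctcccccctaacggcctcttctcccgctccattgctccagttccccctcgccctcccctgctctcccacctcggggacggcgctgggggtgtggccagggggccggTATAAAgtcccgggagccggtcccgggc
Slit2, chr5:47982905-47983154, plus strand: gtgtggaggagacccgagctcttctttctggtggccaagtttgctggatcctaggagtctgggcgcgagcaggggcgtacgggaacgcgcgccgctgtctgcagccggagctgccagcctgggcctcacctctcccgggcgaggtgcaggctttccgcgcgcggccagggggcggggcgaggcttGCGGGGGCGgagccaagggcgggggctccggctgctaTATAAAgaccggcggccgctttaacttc
Npy2r, chr3:82548086-82548335, minus strand: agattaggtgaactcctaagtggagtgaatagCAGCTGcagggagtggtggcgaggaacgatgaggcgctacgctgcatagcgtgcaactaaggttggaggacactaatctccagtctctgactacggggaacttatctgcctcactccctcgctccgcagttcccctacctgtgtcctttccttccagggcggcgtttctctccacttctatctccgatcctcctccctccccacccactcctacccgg
The capitals are the E-box CAGATG of NEUROD factors in Wfs1 (on the reverse strand) and Igfbp4, the TATA box TATAAA in Igfbp4 and Slit2, the EGR1 site GCGNGGGCG in Slit2 and the E-box CAGCTG in Npy2r.

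A RefSeq promoter, from 250 bases before to 50 after the start, was matched to 10719 tested genes, to 413 of those higher in CA1 and to 551 of those higher in CA3. The EGR1 site was in 18.2% of the promoters of genes higher in CA1 and 15.8% of those higher in CA3, against 12.5% of all tested genes and 6.27% of all 27025 promoters. CAGATG was in 13.3% and 15.2% against 14.0%, CAGCTG in 19.6% and 22.9% against 18.5%, and the TATA box in 11.9% and 10.3% against 9.05%. The octamer ATGCAAAT of POU factors was in 1.45% and 1.81% against 1.47%, the element TGACGTCA of CREB in 3.39% and 2.72% against 3.52%, and the element AAAGGTCA of NR4A factors in 0.24% and 0.91% against 1.08%. These shares are a description of letters and were not tested.

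Counts of called members in the lists below stand beside the 9.13% called among all tested genes. Of all tested genes 4.07% were higher in CA1 and 5.06% higher in CA3. The lists and their members were chosen with earlier results of these data known, so their counts are a description and no independent check. All 11 tested markers of CA1 pyramidal cells were higher in CA1, with a median log2 fold change of 1.97. Their summed level was 1052 to 1977 CPM in the CA1 replicates and 303 to 451 CPM in CA3. Besides Wfs1, Fibcd1 and Pou3f1 they include Mpped1, with 164 to 275 CPM against 45.0 to 71.1 CPM (1.79 ± 0.20). Lefty1, an antagonist of Nodal, had 29.5 to 48.3 CPM against 2.47 to 13.9 CPM (2.35 ± 0.38) and Itpka, the kinase of inositol trisphosphate, 141 to 251 CPM against 56.8 to 75.0 CPM (1.61 ± 0.20). Gpr161 had 2.86 ± 0.64.

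Of 12 tested markers of CA3 pyramidal cells, 10 were higher in CA3 and none in CA1, with a median of -1.83 and a summed level of 1224 to 1428 CPM in CA3 and 311 to 550 CPM in CA1. Cpne4, a calcium-dependent phospholipid-binding protein, had 420, 344, 321 and 375 CPM in CA3 and 213, 52.5, 58.7 and 86.4 CPM in CA1 (-1.83 ± 0.26), where CA1 replicate 1 was the highest of CA1. Bok, of the Bcl-2 family, had -2.41 ± 0.37 and Cdh24, a cadherin, -2.76 ± 0.60. Coch, at -0.39 ± 0.62, and Plagl1, at 0.07 ± 0.43, did not pass, and Iyd, with 8 UMIs in CA3 and 0 in CA1, was too low to test.

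Markers of the neighbouring fields were less uniform. Of 9 tested CA2 markers, Rgs14, a regulator of G-protein signalling enriched in CA2, was higher in CA1 with 175, 105, 74.8 and 102 CPM against 50.4, 40.7, 30.9 and 26.0 CPM (1.57 ± 0.25, adjusted p = 5.30e-05). The other 8 did not pass, among them Pcp4 at -0.08 ± 0.20 and Amigo2 at 0.37 ± 0.39. This 1 call in 9 is near the 9.13% called among all tested genes. Without CA1 replicate 2 or 3 a further CA2 marker was called, 2 in all and both higher in CA1. Of 10 tested markers of dentate granule cells, Dsp at -2.15 ± 0.52 and Prox1 were higher in CA3 and Lct at 1.20 ± 0.26 was higher in CA1. The call of Dsp, a desmosome protein, was lost without CA1 replicate 3 (adjusted p = 0.061). Calb2, calretinin of hilar mossy cells and interneurons, had 8.21 to 25.7 CPM in CA3 and 0 to 3.45 CPM in CA1 (-2.86 ± 0.55). The part of neighbouring fields in the differences between CA1 and CA3 was not tested.

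General markers of excitatory neurons differed little. Camk2a, the alpha subunit of CaM kinase II, had 1582 to 2505 CPM in CA1 and 1891 to 2299 CPM in CA3 and did not pass (-0.16 ± 0.15). Of the 7 markers, Dkk3 and Slc17a7, the vesicular glutamate transporter VGLUT1, were lower in CA1, Slc17a7 by a log2 fold change of -0.76 ± 0.20 with overlapping values. The Slc17a7 call was lost without CA1 replicate 1, CA3 replicate 2 or CA3 replicate 3 (adjusted p 0.063 to 0.093).

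Of 13 interneuron markers, 3 were higher in CA1 and 1 in CA3. Gad1, an enzyme of GABA synthesis, had 421, 285, 276 and 361 CPM in CA1 and 181, 169, 172 and 215 CPM in CA3 (0.81 ± 0.17, adjusted p = 0.00136). Vip had 1.17 ± 0.34 and Erbb4, the neuregulin receptor, 0.84 ± 0.22. Nos1, neuronal nitric oxide synthase, was lower in CA1 with 94.3 to 132 CPM against 170 to 189 CPM (-0.74 ± 0.17). The summed level of the list was 1520 to 1759 CPM in CA1 and 1173 to 1403 CPM in CA3, without overlap, with Gad2 at 0.12 and Slc32a1 at -0.06, neither of which passed. The call of Erbb4 was lost without CA1 replicate 1 (adjusted p = 0.087), and that of Vip without CA1 replicate 2 or 3 or CA3 replicate 2 or 3 (0.076 to 0.098).

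Glial and vascular markers overlapped between the regions in most members. Mbp, myelin basic protein, gave 0.41 ± 0.19 and did not pass, and it was highest in CA1 replicate 4. Of 10 astrocyte markers, Aqp4, the water channel of astrocyte endfeet, was lower in CA1 with 134 to 198 CPM against 261 to 299 CPM (-0.75 ± 0.16). Gfap at -0.64 ± 0.20 and Agt at -1.18 ± 0.37 were lower and Gja1, connexin 43, at 0.63 ± 0.18 was higher, all with overlapping values. Each of these 3 calls was lost without single replicates, Gfap and Agt without 6 of the 8 each (adjusted p up to 0.16) and Gja1 without CA1 replicate 1 or 2 or CA3 replicate 3 (up to 0.10). For Gfap these were CA1 replicates 2, 3 and 4 and CA3 replicates 1, 3 and 4, and for Agt CA1 replicates 2, 3 and 4 and CA3 replicates 1, 2 and 4. None of 10 microglial, 11 endothelial and mural, 4 oligodendrocyte precursor and 3 erythrocyte markers was called, for example Ctss at -0.27 ± 0.25 and Rgs5 at 0.01 ± 0.20.

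Some lists mark tissue next to the hippocampus. Of 7 tested choroid plexus markers, Kl, Ttr and Enpp2 were higher in CA1. Ttr, transthyretin, had 3125, 189, 207 and 416 CPM in CA1 and 370, 261, 312 and 43.8 CPM in CA3, so 1 replicate was far above the rest and the others overlapped. Its log2 fold change of 1.98 ± 0.54 (adjusted p = 0.0156) became -0.06 without CA1 replicate 1, and that of Enpp2, autotaxin, went from 0.77 to 0.32 (adjusted p = 0.30). Only Kl, the hormone coreceptor klotho, with 79.3, 29.5, 21.9 and 70.7 CPM against 4.10 to 7.5 CPM (2.82 ± 0.42), was still called then, as 1 of 4 tested. Kcnj13 was at 0 in all 8 replicates. All 4 thalamic markers were higher in CA3, at a summed level of 282 to 422 CPM against 78.6 to 152 CPM in CA1, with Slc17a6, the transporter VGLUT2, at -1.64 ± 0.32 and Tcf7l2 at -1.07 ± 0.20. Prkcd is on this list as well as among the largest differences. The 3 ependymal markers gave no call, with a median of -2.42 and Foxj1, against that direction, at 0.73 ± 0.74. Their summed level was low, at 0 to 6.90 CPM in CA1 and 6.17 to 15.0 CPM in CA3. The part of these cell types in the other differences was not tested.

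Among ionotropic glutamate receptors, the subunits of AMPA and NMDA receptors gave 1 call in 10, near the 9.13% called among all tested genes. It was the NMDA receptor subunit Grin2b, with 943 to 1375 CPM in CA1 and 511 to 912 CPM in CA3 (0.66 ± 0.17, adjusted p = 0.0116). This call was lost without CA1 replicate 2 or 3 or CA3 replicate 1 or 4 (adjusted p 0.052 to 0.059), and 2 members were called without CA1 replicate 4. Grik4 was the only kainate receptor subunit called of 5, and without CA1 replicate 1 or CA3 replicate 2 or 4 a further one was called higher in CA1. Of 7 metabotropic receptors, Grm4 and Grm7, presynaptic receptors of group III, were lower in CA1 by -1.24 ± 0.32 and -0.98 ± 0.22, and Grm5, a group I receptor, was higher by 0.47 ± 0.15 with overlapping values. The Grm5 call was lost without CA1 replicate 2 or 3 or any 1 of the 4 CA3 replicates (0.056 to 0.16).

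Of 12 subunits of GABA-A receptors, Gabra5, the alpha5 subunit of extrasynaptic receptors, had 149 to 210 CPM in CA1 and 257 to 317 CPM in CA3 (-0.62 ± 0.16, adjusted p = 0.00865).

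Of 54 potassium channel subunits, 9 were higher in CA1 and 12 in CA3, with a median of -0.08. Beside Kcnh7, Kcnh3 of the ELK type had 43.8, 91.8, 57.5 and 7.86 CPM in CA1 and 8.64 to 19.3 CPM in CA3 (2.13 ± 0.34), so that CA1 replicate 4 overlapped with CA3. The sodium-activated channel genes Kcnt1 and Kcnt2 went in opposite directions. Kcnt1 had 28.7 to 49.2 CPM in CA1 and 12.9 to 16.1 CPM in CA3 (1.51 ± 0.29), and Kcnt2 had 7.86 to 29.5 CPM in CA1 and 49.2 to 81.5 CPM in CA3 (-1.66 ± 0.29). Kcng1, a modulatory subunit, at -2.76 ± 0.56, and Kcnk4, the leak channel TRAAK, at -2.04 ± 0.45, were lower in CA1. Also called higher in CA3 were Kcna1, Kcna2 and Kcna6 of the Kv1 family with their partner Kcnab2, and higher in CA1 were Kcnab1, Kcnj2, Kcnj4, Kcnk2 and Kcnk9.

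Of 32 calcium, sodium and HCN channel subunits, 2 were higher in CA1 and 5 in CA3, and without CA1 replicate 2 there were 0 and 4. Cacna1c, the L-type channel Cav1.2, had 76.6, 49.2, 47.2 and 39.3 CPM in CA1 and 144, 130, 163 and 150 CPM in CA3 (-1.44 ± 0.20, adjusted p = 8.01e-06). Cacna1a, the P/Q-type channel, had 479 to 852 CPM in CA1 and 1011 to 1243 CPM in CA3 (-0.77 ± 0.16). Scn3a was lower in CA1 by -0.89 ± 0.18 and Scn4b was higher by 1.41 ± 0.41. The call of Scn4b was lost without CA1 replicate 1 or 2 or CA3 replicate 2 or 3 (adjusted p up to 0.096).

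Of 18 calcium-binding proteins, 3 were higher in CA1 and 5 in CA3. Calm2, 1 of the 3 calmodulin genes, had 685, 726, 864 and 605 CPM in CA1 and 298, 356, 264 and 356 CPM in CA3 (1.14 ± 0.15, adjusted p = 2.43e-06). Necab1, at 36.1 to 62.9 CPM against 18.2 to 19.1 CPM, and Ncs1, neuronal calcium sensor 1, at 146 to 248 CPM against 71.6 to 109 CPM, were higher by 1.21 ± 0.27 and 1.00 ± 0.20. Of 31 kinases and phosphatases of calcium signalling, 3 were higher in CA1 and 4 in CA3. Camk1d had 363, 397, 391 and 236 CPM in CA1 and 816, 830, 839 and 734 CPM in CA3 (-1.22 ± 0.15) and Dgkb, a diacylglycerol kinase, had -1.33 ± 0.18. Itpr1, the inositol trisphosphate receptor, was higher in CA1 by 0.82 ± 0.17 and Camk2g by 0.92 ± 0.20, next to Itpka.

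Of 50 transcription factors of excitatory hippocampal neurons, 9 were higher in CA1 and 5 in CA3, with a median of 0.15. Without CA1 replicate 2 there were 4 and 5. Bcl11b, the zinc finger factor Ctip2, had 514, 643, 567 and 448 CPM in CA1 and 144, 281, 188 and 116 CPM in CA3 (1.53 ± 0.19, adjusted p = 1.07e-06). Trps1, a GATA-type factor, had 140, 111, 80.5 and 94.3 CPM in CA1 and 358, 329, 369 and 304 CPM in CA3 (-1.71 ± 0.18, adjusted p = 3.93e-08). Neurod1, a basic helix-loop-helix factor, had 7.86 to 23.3 CPM in CA1 and 41.0 to 75.0 CPM in CA3 (-1.61 ± 0.27). Lmo1, a LIM-only protein, was higher in CA1 by 1.82 ± 0.44, a call lost without CA1 replicate 2 (adjusted p = 0.055). Foxp1, Foxp2, Lmo3, Nr3c2 and Pou3f3 were also called higher in CA1, and Lmo4 and St18 higher in CA3.

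Immediate early genes, which neuronal activity induces, did not share a direction. Of 21, the 3 called higher in CA1 were Nr4a1, Egr1 and Nptx2, and the 3 called higher in CA3 were Bdnf, Nr4a3 and Jun. Nr4a1 had 82.1, 77.0, 98.9 and 47.2 CPM in CA1 and 24.7, 16.1, 23.5 and 27.4 CPM in CA3 (1.79 ± 0.24), and Egr1 65.7, 88.5, 113 and 126 CPM against 27.9, 34.3, 39.5 and 26.0 CPM (1.49 ± 0.24). Bdnf, the neurotrophin, had 124, 86.9, 123 and 55.0 CPM in CA1 and 231, 286, 231 and 198 CPM in CA3 (-1.22 ± 0.19, adjusted p = 2.82e-05). Nr4a3 was lower in CA1 by -1.04 ± 0.20, so 2 members of the NR4A family differed in opposite directions. Jun, at -0.68 ± 0.22 with overlapping values, lost its call without CA1 replicate 2 or 3 or CA3 replicate 1, 2 or 4 (adjusted p 0.060 to 0.19).

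Of 38 receptors of neuromodulators and neuropeptides, 3 were higher in CA1 and 3 in CA3. The serotonin receptors Htr1a and Htr1b were higher in CA1, Htr1a with 23.3, 42.6, 55.2 and 23.6 CPM against 17.1 to 19.8 CPM (1.02 ± 0.30) and Htr1b by 2.44 ± 0.56. Adora1, the adenosine A1 receptor, had 234, 200, 229 and 110 CPM in CA1 and 383, 412, 360 and 313 CPM in CA3 (-0.89 ± 0.17), and Gabbr2, a GABA-B receptor subunit, had -0.62 ± 0.15. Sstr2, a somatostatin receptor, was higher in CA1 by 2.16 ± 0.59. The call of Htr1a was lost without CA1 replicate 2 or 3 or CA3 replicate 3 (adjusted p up to 0.24) and that of Sstr2 without CA1 replicate 1 (0.054).

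Peptide genes were mostly higher in CA3 where they were called. Of 23 neuropeptide and granin genes, 2 were higher in CA1 and 5 in CA3, with a summed level of 4526 to 5069 CPM in CA1 and 5708 to 7444 CPM in CA3. Chgb, the granin chromogranin B, had 472, 346, 424 and 354 CPM in CA1 and 1307, 984, 1035 and 1462 CPM in CA3 (-1.62 ± 0.16, adjusted p = 1.16e-08). Cpe, the carboxypeptidase that trims peptides, had 1055 to 1321 CPM in CA1 and 1431 to 1988 CPM in CA3 (-0.63 ± 0.14). The number of calls moved with single replicates. The list gave 2 calls, both higher in CA3, without CA1 replicate 2 and likewise without CA1 replicate 3, 3 calls without CA3 replicate 1 or 4, and 4 without CA3 replicate 3. Of 13 neurotrophins, growth factors of that list and their receptors, Bdnf and Fgf13 were higher in CA3, Fgf13 at -0.53 ± 0.17 with its call lost without each replicate except CA1 replicate 1 (adjusted p up to 0.13).

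Of 23 cadherins and protocadherins, 3 were higher in CA1 and 6 in CA3. Cdh6 had 65.7, 115, 122 and 62.9 CPM in CA1 and 24.7, 30.0, 29.6 and 27.4 CPM in CA3 (1.73 ± 0.24). Cdh9, whose product joins mossy fibres to CA3 cells, had 11.5 to 25.3 CPM in CA1 and 32.1 to 52.5 CPM in CA3 (-1.25 ± 0.29), and Pcdh8 had 11.5 to 39.3 and 82.1 to 128 CPM (-2.15 ± 0.27). Cdh10 was higher in CA1 by 1.03 ± 0.25. Cdh18 was called from 10 UMIs in CA1 and 0 in CA3, at least 4.86-fold higher in CA1 with 3 counts over the group as the limit for the 0. It passed the filter of 10 UMIs through CA1 alone, so it could be tested in 5 of the 8 fits that left out a replicate. Cdh18 is given as a value only, although it is 1 of the 3 counted as higher in CA1.

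Of 73 genes of axon guidance and synaptic adhesion, 9 were higher in CA1 and 16 in CA3, with a median of -0.10, beside the 9.13% called among all tested genes. Nrp2, a semaphorin receptor, had 64.3, 57.4, 57.5 and 39.3 CPM in CA1 and 199, 212, 217 and 191 CPM in CA3 (-1.88 ± 0.18, adjusted p = 9.98e-09). Sema5b, a semaphorin, had -1.83 ± 0.26, Ntng1, the adhesion molecule netrin-G1, -2.05 ± 0.30 and Epha3, an ephrin receptor, -1.78 ± 0.22. With Slit2 its receptor Robo1 was called higher in CA3, as were the netrin receptors Dcc, Unc5c and Unc5d. Unc5b, Sema3c, Sema7a, Efnb3, Flrt2, Tenm3, Adgrl2, Adgrl3 and Plxnd1 were called higher in CA1, of which Plxnd1, at 2.02 ± 0.53, was lost without CA1 replicate 2 or 3 (adjusted p 0.063 to 0.073). Without CA1 replicate 2 the list had 3 calls higher in CA1 and 13 in CA3.

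**Figure D3:**
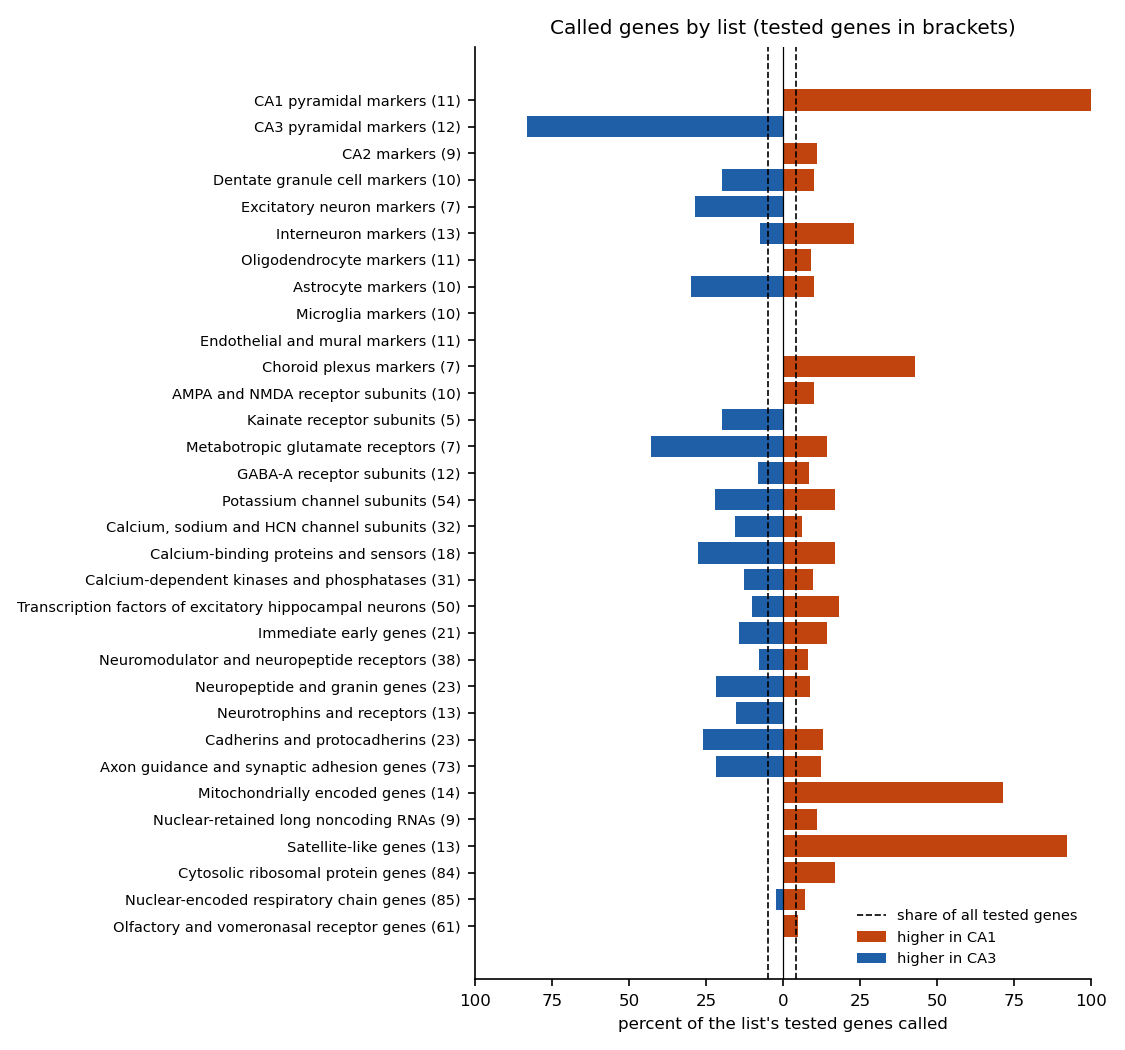
Bars give the percent of the tested genes of each list (number in brackets, lists of 5 or more tested genes) that were called higher in CA1 (right) and higher in CA3 (left). The dashed lines are the shares of all 15637 tested genes, 4.07% and 5.06%. The lists were chosen with earlier results of these data known. Markers of CA1, satellite-like and mitochondrially encoded genes have the longest bars on the right and markers of CA3 the longest on the left.

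Satellite-like genes are annotated gene models that resemble satellite repeats, so a read counted to them can come from RNA or from genomic DNA, and which it was cannot be told apart. Of 13 tested, 12 were higher in CA1 and none in CA3, with a median log2 fold change of 2.20. Their summed level was 9843 to 39983 CPM in CA1 and 3664 to 4667 CPM in CA3, against 1416 to 1547 CPM in DG. Gm10800 had 3482, 3834, 3213 and 14271 CPM in CA1 and 1534, 1797, 1368 and 1630 CPM in CA3 (1.92 ± 0.29, adjusted p = 2.41e-05). Gm10801 and Gm21738 gave 2.15 ± 0.30 and 1.89 ± 0.28. CA1 replicate 4 was far above the other CA1 replicates, and without it the 12 genes were still called, with a list median of 1.56. The 10 members tested in TE sections gave no call, where the summed level was 891 to 1164 CPM in CA1 and 533 to 1169 CPM in CA3.

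The members share much of their sequence, which is why the counts of single members are uncertain. Between 56.3% and 97.4% of the words of 20 bases in each member were also in another member, and 63.8% to 65.7% of their bases were A or T. The first 120 bases of the Gm10800 transcript, from the gene at chr2:98666547-98667301 on the minus strand of GRCm38, are printed to show this, with capitals for the bases that lie in a word of 20 bases found in Gm26870 on either strand.
Gm10800: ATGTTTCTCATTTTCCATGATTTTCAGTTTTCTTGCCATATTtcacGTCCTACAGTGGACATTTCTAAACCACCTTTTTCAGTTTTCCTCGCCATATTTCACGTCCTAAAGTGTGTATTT

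Mitochondrially encoded genes, the core subunits of the respiratory chain and the ribosomal RNAs of the organelle, were higher in CA1 in 10 of 14 tested, with a median of 0.90. The members fell into 2 kinds. For mt-Co2 the CA1 replicates had 460, 470, 584 and 558 CPM and the CA3 replicates 48.2, 41.8, 38.3 and 64.3 CPM (3.37 ± 0.18, adjusted p = 1.72e-14), and mt-Co3, mt-Nd3 and mt-Atp6 gave 2.57 ± 0.22, 3.14 ± 0.42 and 2.29 ± 0.22. In contrast, the most abundant members were high in 1 replicate, as mt-Rnr2 with 5874, 7085, 5011 and 21225 CPM in CA1 and 4460, 4510, 5190 and 5607 CPM in CA3 (0.94 ± 0.27). Without CA1 replicate 4 its log2 fold change was 0.22 (adjusted p = 0.29), that of mt-Nd1 was 0.23 (0.24) instead of 0.80, and the list had 7 calls, with a median of 0.56. The list also had 7 calls without CA3 replicate 1. The mt-Rnr2 call was also lost without CA3 replicate 1 (0.058) and that of mt-Nd1 without CA3 replicate 1 or 3 (0.055 and 0.068). The UMI counts of mt-Rnr2 were 4100 to 4356 in the other 7 replicates, about the 4096 different UMIs of 6 bases, and 2701 in CA1 replicate 4, so its CPM in the deeper replicates are limited by the number of UMIs. Abundant members below that number are held down to a lesser degree. In TE sections 14 members gave 1 call, higher in CA3.

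Nuclear copies of mitochondrial DNA carry nearly the same letters as these genes. Of 14 tested genes that share a word of 31 bases with a mitochondrially encoded gene, 10 were higher in CA1 and none in CA3. Gm13341, a copy of mt-Co2, had 3016, 3126, 3208 and 6295 CPM in CA1 and 211, 221, 270 and 245 CPM in CA3 (3.99 ± 0.21, adjusted p = 1.11e-14). Its transcript is 95.9% identical to mt-Co2 over 684 aligned positions, while another copy, Gm28661, is 100% identical over 681. A stretch of 90 bases with 7 differing bases in capitals shows how little tells the genes apart, from mt-Co2 at chrM:7457-7546 on the plus strand and from Gm13341 at chr2:22587441-22587530 on the minus strand, both on GRCm38.
mt-Co2: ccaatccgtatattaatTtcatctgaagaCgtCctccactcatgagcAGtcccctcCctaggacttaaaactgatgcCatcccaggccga
Gm13341: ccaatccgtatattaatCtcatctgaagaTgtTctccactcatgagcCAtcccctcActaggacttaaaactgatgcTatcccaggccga
Reads without such a base cannot be assigned to one gene, and the counts of each are uncertain.

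The levels of these copies differed between libraries. Gm13341 was at 3016 to 6295 CPM in the CA1 and 211 to 270 CPM in the CA3 library of HCl sections, but at 226 to 373 and 1349 to 2439 CPM in those of TE sections, a reversal from 3.99 to -2.71 ± 0.19 (adjusted p = 2.55e-10). Gm10925, a copy identical to mt-Atp6 over 678 bases, had 1470 to 2750 CPM in CA1 and 297 to 789 CPM in CA3 (1.79 ± 0.21) and in TE sections 39.2 to 51.3 and 536 to 964 CPM (-4.0 ± 0.21). Summing mt-Co2 with Gm13341 and Gm28661 did not remove the difference. The sum was 4030 to 7772 CPM in CA1 and 381 to 491 CPM in CA3 of HCl sections and 449 to 651 and 1540 to 2640 CPM in TE sections. Gm29216, 99.8% identical to a part of mt-Co1, was higher in CA1 of HCl sections by 3.45 ± 0.21 and lower in CA1 of fixed frozen sections by -4.03.

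Gm3756, at chr9:31935446-31936800 on the minus strand, was counted in 1 library. It had 153, 128, 125 and 86.4 CPM in the CA1 replicates of HCl sections, 310 UMIs in all, and 0 UMIs in every replicate of the other 11 libraries. With 3 counts over the CA3 group as the limit, it was at least 151-fold higher in CA1. Its transcript is 98.7% identical to that of Tuba1b, an alpha-tubulin gene, over 1356 aligned positions. Tuba1b itself had 124, 95.1, 141 and 94.3 CPM in CA1 and 236, 220, 209 and 179 CPM in CA3 (-0.89 ± 0.18, adjusted p = 7.34e-04). The sum of both genes was 237 ± 44.4 CPM in CA1 and 211 ± 23.9 CPM in CA3 (SD, n = 4), with overlapping values, so the lower level of Tuba1b in CA1 was absent from the sum.

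**Figure D4:**
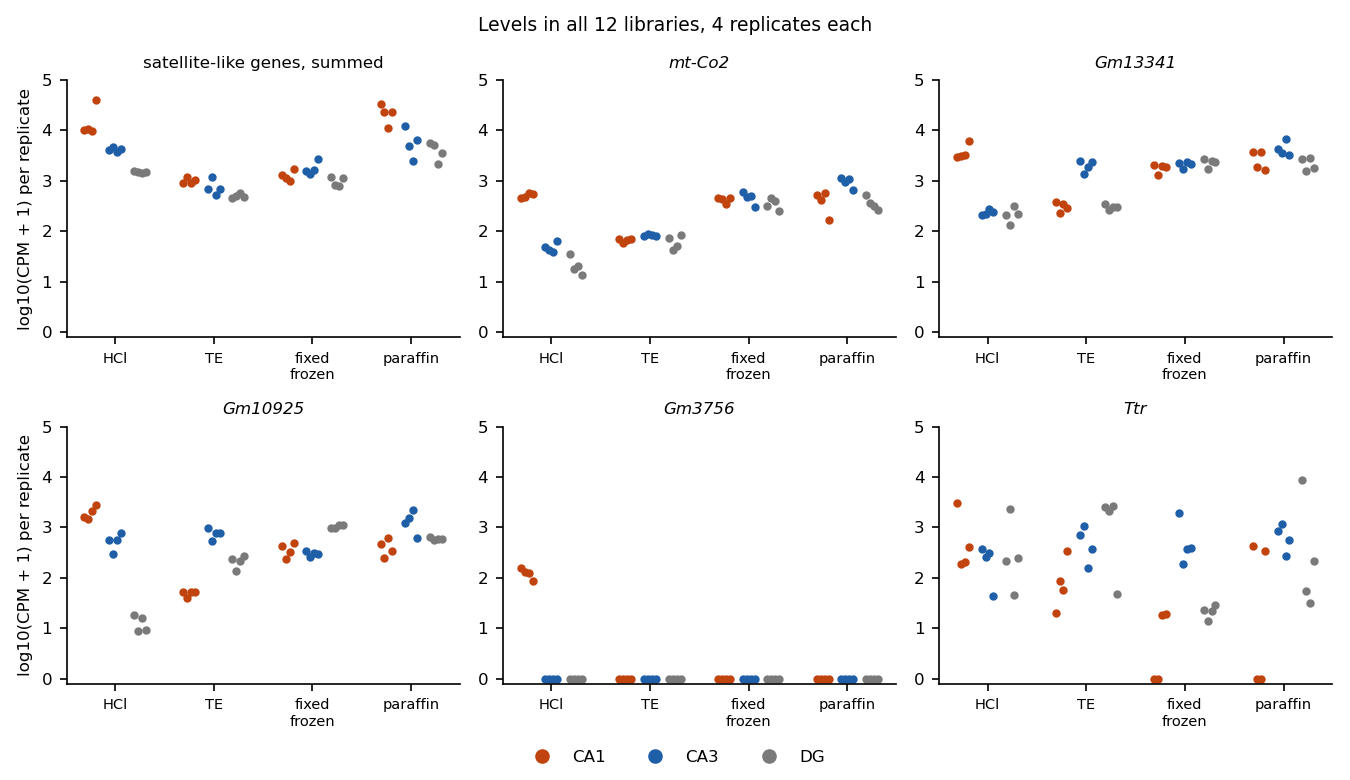
Points are the log10(CPM + 1) of single replicates in the 12 libraries (3 regions in 4 conditions), for the summed satellite-like genes, mt-Co2, its copy Gm13341, Gm10925, Gm3756 and Ttr. In HCl sections the CA1 points lie above those of CA3 for all but Ttr, Gm13341 and Gm10925 have the opposite order in TE sections, and Gm3756 is above 0 in the CA1 library of HCl sections alone.

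Cytosolic ribosomal protein genes, which have many processed copies in the genome and whose counts are uncertain for that reason, were higher in CA1 in 14 of 84 and in CA3 in none, with a median of 0.36. Rpl7a had 50.6, 68.9, 44.9 and 31.4 CPM in CA1 and 16.1, 17.1, 12.3 and 13.7 CPM in CA3 (1.73 ± 0.28), and Rps4x 1.66 ± 0.29. The number fell to 8 without CA1 replicate 3 and to 9 without CA3 replicate 3, and without CA1 replicate 4 there were 13 higher in CA1 and 2 in CA3. Nuclear-encoded genes of the respiratory chain were called in 6 of 85 higher in CA1 and 2 in CA3, with a median of -0.02, near the 9.13% called among all tested genes. There were 4 and 0 without CA1 replicate 1, 3 and 0 without CA1 replicate 2 or without CA1 replicate 3, and 4 and 1 without CA3 replicate 3. Of 9 nuclear-retained long noncoding RNAs, Miat, with 502 to 723 CPM in CA1 and 247 to 440 CPM in CA3 (0.67 ± 0.17), was the only one called, again near the 9.13% of all tested genes. Without CA1 replicate 2 or CA3 replicate 4 a further one was called higher in CA3. Of 61 olfactory and vomeronasal receptor genes with enough UMIs, 3 were higher in CA1 and none in CA3, with a median of 1.21. The summed level of all 1199 such genes, most of them too low to test, was 628 to 1910 CPM in CA1 and 311 to 395 CPM in CA3. These 3 calls stand beside the 4.07% of all tested genes called higher in CA1, and 1 was left without CA1 replicate 1 or 4 or CA3 replicate 1 or 3. With DESeq2 and on thinned counts there was no call, and no member passed edgeR's own filter.

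The same regions were compared in TE sections, where 640 of 14544 genes were called (4.40%), 290 higher in CA1 (1.99%) and 350 higher in CA3 (2.41%). With the replicate number as a block, an alternative fit, there were 1222 calls (574 and 648) in TE sections. In fixed frozen sections 597 of 8286 genes were called (7.20%), 277 higher in CA1 (3.34%) and 320 higher in CA3 (3.86%). In the fit without the block, of the 636 genes higher in CA1 of HCl sections 599 were tested in TE sections, 135 (22.5%) were called higher in CA1 and 5 higher in CA3. Of the 792 genes higher in CA3, 789 were tested there, 247 (31.3%) were called higher in CA3 and none higher in CA1. With the block these were 177 (29.5%) and 11 of the 599 and 335 (42.5%) and 1 of the 789. In fixed frozen sections 115 of 453 (25.4%) and 197 of 635 (31.02%) were called in the same direction and 10 and 0 in the opposite one. In all 3 conditions 86 genes were called higher in CA1 and 134 higher in CA3, or 93 and 156 with the block in TE sections.

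The 5 genes called in opposite directions in HCl and TE sections without the block were Spred2, Tpt1, Ttr, Gm13341 and Gm10925, which were picked here after their values were seen. Spred2, an inhibitor of Ras signalling, had 62.3 to 78.6 CPM in CA1 and 13.7 to 39.6 CPM in CA3 (1.23 ± 0.26) and in TE sections -0.84 ± 0.23. Tpt1, the translationally controlled tumour protein, had 88.9, 73.8, 81.7 and 141 CPM in CA1 and 31.1, 22.5, 32.1 and 41.0 CPM in CA3 (1.44 ± 0.24) and in TE sections -0.84 ± 0.21.

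The test of the difference itself, the interaction of region and permeabilization, called 89 of 17250 genes (0.516%), 71 with a higher ratio of CA1 to CA3 in HCl sections and 18 with a higher ratio in TE sections. With the replicate block it called 450 (211 and 239). It called 63 of the 636 genes higher in CA1 and 13 of the 792 higher in CA3. Of the 12 genes with the largest difference in each direction it called Atn1 alone, whose ratio was 3.10 higher on the log2 scale in HCl sections (adjusted p = 4.18e-04). In TE sections Atn1 had 10.9 ± 9.04 CPM in CA1 and 14.8 ± 6.59 CPM in CA3 (SD, n = 4). Among the genes named here it also called Rgs14 (1.57), Ncs1 (1.57), Necab1 (1.31), Cdh10 (1.83), Rpl7a (2.14), Rps4x (1.77), Ttr (4.37), Gm10800 (1.59), Gm10801 (1.89) and Gm26870 (2.94), with values on the log2 scale. It called mt-Co2 (3.68), mt-Co3 (2.27) and mt-Atp6 (1.70), the copies Gm13341 (6.67), Gm10925 (5.76), Gm29216 (3.01) and Gm28661 (1.64), and Tpt1 (2.25) and Spred2 (2.05).

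The genes of largest difference were largely the same way in the other conditions. Of the 12 with CA1 higher, 9 of 12 tested were called higher in CA1 in TE and 8 of 11 in fixed frozen sections, and of the 12 with CA3 higher, 12 of 12 and 11 of 11 were called higher in CA3. Wfs1 had 2.84 ± 0.22 in TE and 4.64 ± 0.43 in fixed frozen sections, and Slit2 -2.87 and -3.35. Mex3b (0.29) and Itga8 (1.10) did not pass in TE sections, and neither did Atn1 (-0.72). With the block Itga8 passed there (1.13, adjusted p = 0.0281), so 10 of the 12 were called, while Mex3b and Atn1 did not (adjusted p 0.451 and 0.286). The 11 CA1 markers were all called higher in CA1 in TE sections with and without the block, and 8 of 13 CA3 markers higher in CA3, or 9 with the block.

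**Figure D5:**
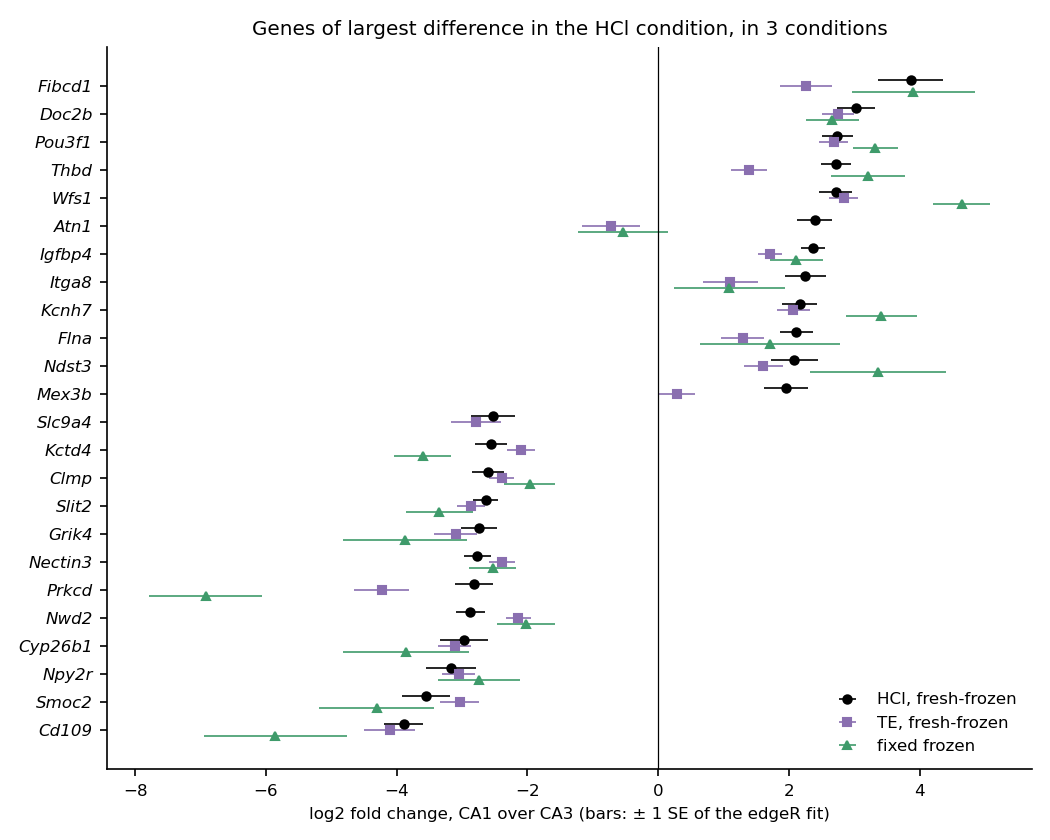
Points are log2 fold changes of CA1 over CA3 with bars of 1 SE from the edgeR fits, for the 24 genes of largest difference in HCl sections, in HCl (circles), TE (squares) and fixed frozen sections (triangles, where tested). The genes higher in CA3 lie on the left in all conditions, and of those higher in CA1 Atn1 lies left of 0 in the other 2 conditions.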

How the data were processed

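Counts of UMIs per gene and replicate were deposited by the authors as 1 table of 48 replicates. The submitters' processing notes name UMI-tools 1.0.0, HISAT2 2.1.0, featureCounts 1.6.4, DESeq2 1.20.0 and GRCm38. The study's counting command sets no strand option, so reads of a gene and its antisense partner cannot be told apart. CEL-seq2 libraries are read at the 3′ end, and reads of near-identical or overlapping genes are uncertain. A UMI of 6 bases has 4096 forms, which limits counts near that number and, to a lesser degree, high counts below it.

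Genes with at least 10 UMIs over the 8 replicates were tested with edgeR 4.0.16 (R 4.3.3), by the quasi-likelihood test with TMM normalization and Benjamini-Hochberg adjustment at 0.05. The same test was run on TE and fixed frozen sections, and the interaction on both frozen conditions without fixation. The script was tested on simulated data. Totals were compared by two-sided exact permutation tests. Alternatives were DESeq2 1.42.0, other normalizations and filters, thinned counts, a replicate block and each replicate left out. Genes named were the 12 of largest difference in each direction among called genes whose mean was 20 UMIs or more, without overlap and with a gene symbol that is no serial name, the genes the study names, and members of 37 lists. The members and lists were chosen with earlier results of these data known. Medians of a list are over its tested members, and summed levels are over all its members in the table, also those not tested. Of 773 missing symbols, 742 were filled from GENCODE. Some genes that count in the lists are not reported here by name.

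In TE sections the deviations of same-numbered CA1 and CA3 replicates from their group means correlated across 9904 genes at 0.335, 0.240, 0.338 and 0.180. CA1 replicate 2 correlated slightly more with CA3 replicate 3 (0.250), and CA1 replicate 4 with CA3 replicate 1 (0.182). In HCl, TE and fixed frozen sections alike, CA1 replicates 1 and 4 correlated above 0 with CA3 replicates 1 and 4. The same held for replicates 2 and 3. All correlations between these sets were below 0, in TE sections from -0.331 to -0.170. The replicate numbers therefore shared some structure across regions, which the fits without the block leave out. What they shared is not in the labels and was not tested. A pairing of single numbers is not settled, and the fits with the block are alternatives.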

Additional observations from a re-analysis of the deposited data

Results flagged for a closer look

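Single replicates stood apart from the other 3 of their group in 33 of 372 groups of 4 values, by a gap that chance exceeds in about 1 in 20 groups. In 17 of these it was CA1 replicate 4, the shallow replicate. It was high for mt-Rnr2 (21225 CPM), mt-Nd4 (12660), mt-Nd1 (13069), Gm10800 (14271), Gm21738 (9925), Gm10801 (8636), Gm13341 (6295), Gm26870 (1234), Kcnk9 (165) and mt-Nd3 (134). It was low for Igfbp4 (181 CPM), Nectin3 (15.7), Ctss (23.6), Neurod1 (7.86), Sdhc (47.2), Grik4 (0) and Grm4 (0).

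CA1 replicate 1 stood apart in 6 groups, with Ttr at 3125 CPM, Erbb4 at 146 CPM, Ociad2 at 216 CPM, Kcnk2 at 116 CPM, Unc5d at 58.8 CPM and Kcnt1 at 28.7 CPM, and CA1 replicate 2 in 1, with Ncs1 at 248 CPM. In CA3 the values were Kcna6 at 85.8 CPM, Prkcd at 66.5 CPM and Lmo1 at 8.58 CPM in replicate 1, Kcnk4 at 28.9 CPM in replicate 2, Atn1 at 9.88 CPM, Nectin3 at 319.7 CPM and Plagl1 at 6.17 CPM in replicate 3, and Rps18 at 42.4 CPM and Cox7a2l at 161 CPM in replicate 4.

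The log2 ratio of CA1 to CA3 differed between HCl and TE sections in edgeR's interaction test for 20 genes named here. HCl minus TE was 3.10 for Atn1, 1.57 for Rgs14, 4.37 for Ttr, 1.31 for Necab1, 1.57 for Ncs1, 1.83 for Cdh10, 1.59 for Gm10800, 1.89 for Gm10801, 2.14 for Rpl7a and 1.77 for Rps4x. It was 3.68 for mt-Co2, 2.27 for mt-Co3, 1.70 for mt-Atp6, 6.67 for Gm13341, 5.76 for Gm10925, 3.01 for Gm29216, 1.64 for Gm28661, 2.94 for Gm26870, 2.25 for Tpt1 and 2.05 for Spred2.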

How the results depend on the processing

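Within HCl sections region and library cannot be told apart, and no setting changes that. The 1428 calls became 366 (162 higher in CA1, 204 in CA3) when all replicates were thinned to 127253 UMIs and 490 with the replicate block as well, with fewer genes tested. They were 989 with DESeq2, 1408 without TMM and 2023 with the replicate block alone. Leaving out each replicate gave 937 (without CA1 replicate 3) to 1344. Same-numbered HCl replicates correlated at 0.207, 0.0997, 0.0759 and 0.127, and not every replicate correlated best with its own number, so the number was not taken as a pairing. The same held in TE sections, so the block is an alternative there too. In both conditions replicates 1 and 4, and replicates 2 and 3, correlated above 0 across regions, a shared structure that the fits without the block leave out. The 640 calls in TE sections became 1222 with the block (469 to 578 without single replicates) and the 597 in fixed frozen sections 700 (454 to 542). The 89 interaction calls became 19 on thinned counts and 450 with the block, and the cause was not tested. Wfs1 was called in every setting run (2.50 to 3.10 without single replicates).

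The ratio of UMI totals was 0.574 to 0.865 without single replicates, with an exact permutation p of 0.0286 without CA1 replicate 3. That of detected genes was 0.929 to 1.05, above 1 without CA1 replicate 4 (1.05), and 1.06 at equal depth. Log2 fold changes that changed sign were those of Pdzd2 (-0.31 to 0.13 without single replicates, 0.13 without CA1 replicate 3 and 0.11 without CA3 replicate 2), Pcp4 (0.060 thinned, 0.034 thinned with the block, -0.46 to 0.086 without single replicates, above 0 without CA1 replicates 2 and 3), Rgs5 (-0.048 with the block, -0.035 thinned, -0.052 with both, -0.31 to 0.19 without single replicates, below 0 without CA1 replicate 2 and CA3 replicates 2 and 4), Ttr (-0.064 without CA1 replicate 1, up to 2.35), Hbb-bs (-0.32 to 0.14, above 0 without CA1 replicate 1 and CA3 replicate 4) and Jun (0.23 thinned, 0.24 with the block as well). Of 128 named genes called, 95 were called without each replicate in turn.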
